A study of Mus musculus with 12 samples.

Results

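Genes of fatty acid synthesis and uptake were followed through RNA-seq of cultured adult neural stem/progenitor cells (aNSPCs) of the mouse, with and without added nicotinamide adenine dinucleotide (NAD+). They are Acly, Acss2, Acaca, Fasn, Elovl6, Scd1, Scd2, Fads2, Mfsd2a and Fabp5, 10 of the 55401 genes listed in both deposited tables. They were chosen by name from the FPKM values of these same 12 samples, with their differences between the groups already known. All their values are therefore given as a description with no p-value, and nothing rests on the number of them that changed. aNSPCs came from the forebrain of C57BL/6 mice aged 8 to 10 weeks and were grown with the growth factors EGF and FGF-2 (proliferating). Differentiation was induced with 1 µM retinoic acid and 5 µM forskolin. Under each condition, cells without NAD+ (Ctrl) were compared with cells given 1 mM NAD+, with 3 samples in each of the 4 groups. The study asked how NAD+ regulates aNSPCs. The labels name no mutation or transgene in any group, and all samples are cultured cells. The treatment field of the sample labels reads untreated for all 12 samples, and the groups used here follow the sample titles.

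Cells make fatty acids from acetyl-CoA in the cytosol, which is supplied from citrate by ATP citrate lyase (Acly) and from acetate by an acetyl-CoA synthetase (Acss2). Acetyl-CoA carboxylase (Acaca) makes malonyl-CoA, fatty acid synthase (Fasn) builds palmitate from it with electrons from NADPH, and the products are lengthened by the elongase Elovl6 and given double bonds by the desaturases Scd1, Scd2 and Fads2. Mfsd2a carries lysophosphatidylcholine with long polyunsaturated chains across the plasma membrane, and Fabp5 binds fatty acids inside the cell. Many of these genes are known targets of the transcription factors SREBP1 and SREBP2 (encoded by Srebf1 and Srebf2), which leave the endoplasmic reticulum when sterols are low, and of the oxysterol receptor LXR. Lipogenesis through Fasn is known to be needed for the division of adult neural stem cells.

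SREBPs act together with factors that bind CCAAT (NF-Y) and GC-rich letters (Sp1), so the bases before the transcription start were read. Of the 10 members, 7 had an entry in the RefSeq promoter table (build GRCm38.p6). No entry was matched for Scd1, Scd2 and Fabp5. The windows of 250 bases before the start lay within the members' own GENCODE gene models in part or whole for Acaca, Elovl6, Fads2 and Acss2, so the other 3 are printed, which stand for synthesis (Acly, Fasn) and uptake (Mfsd2a). They are Acly at chr11:100528001-100528250, Fasn at chr11:120824548-120824797 and Mfsd2a at chr4:122961189-122961438, all on the minus strand and written 5′ to 3′, with CCAAT and GGGCGG on either strand in capitals.
Acly: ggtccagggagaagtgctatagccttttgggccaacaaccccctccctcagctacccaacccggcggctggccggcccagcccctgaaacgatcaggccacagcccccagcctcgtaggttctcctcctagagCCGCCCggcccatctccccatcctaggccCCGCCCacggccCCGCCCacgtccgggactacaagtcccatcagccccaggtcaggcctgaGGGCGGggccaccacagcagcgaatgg
Fasn: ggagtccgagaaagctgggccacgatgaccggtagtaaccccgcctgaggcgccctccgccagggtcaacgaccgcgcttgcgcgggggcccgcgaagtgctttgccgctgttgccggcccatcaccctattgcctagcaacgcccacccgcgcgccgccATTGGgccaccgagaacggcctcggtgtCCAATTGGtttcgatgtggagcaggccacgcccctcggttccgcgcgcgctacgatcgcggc
Mfsd2a: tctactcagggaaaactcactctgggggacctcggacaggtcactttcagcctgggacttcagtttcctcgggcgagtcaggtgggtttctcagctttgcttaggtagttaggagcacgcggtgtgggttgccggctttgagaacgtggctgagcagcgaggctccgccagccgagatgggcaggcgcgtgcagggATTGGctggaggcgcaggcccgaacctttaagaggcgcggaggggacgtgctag
Acly held 4 matches to GGGCGG, Fasn held 3 matches to CCAAT, of which a pair on opposite strands shares bases, and Mfsd2a held 1 match to CCAAT. Among the 7 members, Acss2 also held 1 CCAAT and 4 GGGCGG matches and Fads2 held 1 GGGCGG match. Over 32851 windows of the same length from 27025 genes, 33.8% held CCAAT and 32.7% held GGGCGG on either strand. The SREBP letters TCACNCCAC were in 1.05% of these windows and the E-box CACGTG in 6.02%, and neither was in a window of the 7 members. These matches are letters only, and no binding was measured.

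The measured unit was FPKM (fragments corrected for transcript length and for the sequenced fragments of each library), as the authors deposited it. Its values are given to 0.01, so reads cannot be recovered and the depth is unknown. In the proliferating Ctrl group, replicate 1 stood apart. Its FPKM values summed to 363330, against 308828 to 314683 in the other 5 proliferating samples, and the log2 deviations from the mean of the other 2 samples of its group correlated with exon length at a Spearman rho of -0.40 across 12919 genes, against -0.12 to 0.35 in the other 11 samples. In this sample Acly, Acaca, Fasn, Elovl6 and Scd2 were at 0.715, 0.678, 0.663, 0.699 and 0.478 times the mean of the other 2 proliferating Ctrl samples, and Fads2 was at 1.23 times it. In the differentiating Ctrl group, Scd2 of replicate 2 was 3.99 times the next highest sample, and 4 of 3782 genes at 10 FPKM or more in both others lay more than 2.5-fold above both. Markers of neural stem or progenitor cells were present in all groups, with 0 of 8 at 0 and sums of 591 to 718 FPKM under proliferation. The sum of 8 markers of dividing cells was 227 to 313 FPKM under proliferation and 21.5 to 24.8 under differentiation.

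In proliferating aNSPCs, the members with the largest differences between NAD+ and Ctrl were the 3 of uptake and acetate use. Mfsd2a was at 0.432 times, Acss2 at 0.514 times and Fabp5 at 0.600 times its Ctrl mean. Scd1 and Fads2 were also below Ctrl in all 3 samples. The enzymes of the synthesis chain proper (Acly, Acaca, Fasn, Elovl6) overlapped between the groups, and for Acly, Acaca and Elovl6 the overlap came from Ctrl replicate 1 alone, the sample that stood apart. In differentiating cells, Acly, Acaca, Fasn, Elovl6, Acss2 and Fabp5 were lower with NAD+ in all 3 samples than in any Ctrl sample, whereas Scd1 was higher and Fads2 was about level. The plot of the members' FPKM by sample shows each of these values.

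**Figure D1:**
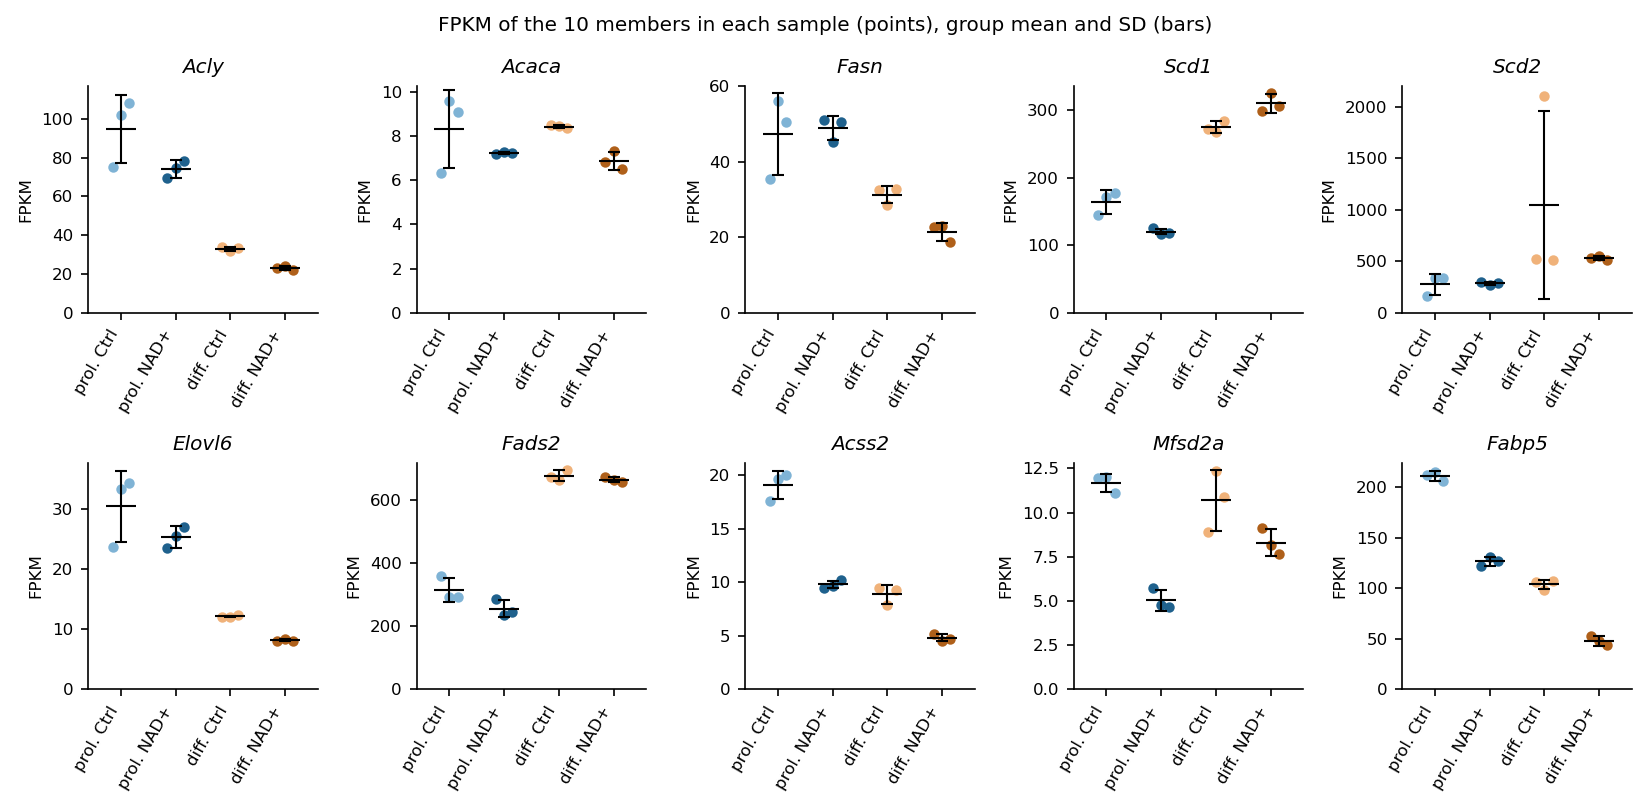
FPKM (linear axis from 0, scaled separately for each gene) of the 10 members in the 12 samples, with points for the 3 samples of each group and bars for the mean and SD (prol., proliferating; diff., differentiating). Fabp5 descends over the 4 groups from a mean of 211 to 48.1 FPKM, Scd1 is highest in the differentiating NAD+ group, and 1 differentiating Ctrl sample of Scd2 lies at 2106 FPKM.

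Acly, which makes cytosolic acetyl-CoA from citrate, measured 75.05, 101.87 and 107.97 FPKM in proliferating Ctrl and 69.38, 74.80 and 78.22 with NAD+. In differentiating cells it measured 33.70, 31.93 and 33.32 FPKM in Ctrl and 23.08, 24.11 and 22.07 with NAD+. The groups overlapped under proliferation, through the low Ctrl replicate 1, and were apart under differentiation. On the scale of log2(FPKM + 0.1), which is used for all fold changes here and understates changes of low genes, the NAD+ effect was -0.34 (SE 0.15) in proliferating cells, or -0.50 without Ctrl replicate 1, and -0.51 (SE 0.05) in differentiating cells. Acss2, which makes acetyl-CoA from acetate, measured 17.56, 19.65 and 20.02 FPKM in proliferating Ctrl and 9.51, 9.69 and 10.20 with NAD+. Under differentiation it measured 9.51, 7.83 and 9.25 FPKM in Ctrl and 5.20, 4.55 and 4.72 with NAD+. The groups were apart in both conditions, and the log2 fold changes were -0.95 (SE 0.09) and -0.86 (SE 0.10). The level of proliferating NAD+ samples, 9.80 ± 0.36 (SD, n = 3), met that of differentiating Ctrl samples, 8.86 ± 0.90 (SD, n = 3). Exons of Acss2 overlap those of Ggt7, Gss and the antisense transcript Acss2os on the opposite strand over 197, 395 and 335 bases, and whether the counting used strand is not given in the sources used here. The mean FPKM of these 3 genes was 5.83, 3.59 and 0.170.

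Acaca, the carboxylase that commits acetyl-CoA to fatty acid synthesis, had group means between 6.88 and 8.44 FPKM, the narrowest range of the 10 relative to its level. It measured 6.33, 9.59 and 9.08 FPKM in proliferating Ctrl, 7.19, 7.28 and 7.24 with NAD+, 8.52, 8.44 and 8.35 in differentiating Ctrl and 6.83, 7.31 and 6.50 with NAD+. The differentiating groups were apart, with a log2 fold change of -0.29 (SE 0.07), and the proliferating groups overlapped, with -0.18 (95% interval -0.57 to 0.21). Without Ctrl replicate 1 the proliferating groups of Acaca were apart, at -0.36. Fasn, the synthase, measured 35.37, 56.14 and 50.51 FPKM in proliferating Ctrl and 51.13, 45.21 and 50.41 with NAD+. It measured 32.47, 28.57 and 32.85 FPKM in differentiating Ctrl and 22.74, 22.92 and 18.72 with NAD+. The log2 fold change was 0.07 (95% interval -0.34 to 0.48) under proliferation, where it turned to -0.12 without Ctrl replicate 1, and -0.55 (SE 0.10) under differentiation, where the groups were apart.

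Elovl6, which lengthens palmitate, had the same order of groups as Acly. It measured 23.62, 33.35 and 34.23 FPKM in proliferating Ctrl and 23.45, 25.53 and 27 with NAD+, which overlapped, at a log2 fold change of -0.25 (SE 0.15). Without Ctrl replicate 1 they were apart, at -0.42. It measured 12.08, 12.04 and 12.26 FPKM in differentiating Ctrl and 8.03, 8.43 and 8.10 with NAD+, with no overlap and a log2 fold change of -0.56 (SE 0.05).

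Under differentiation the desaturases Scd1 and Fads2 differed from the synthesis chain, as Scd1 was higher with NAD+ and Fads2 about level. Under proliferation both were below Ctrl. Scd1, which places the first double bond in stearate and palmitate, measured 144.21, 171.17 and 177.53 FPKM in proliferating Ctrl and 124.96, 117.09 and 118.78 with NAD+. It measured 272.39, 268.15 and 284.51 FPKM in differentiating Ctrl and 299.51, 325.57 and 305.84 with NAD+. With NAD+ all 3 samples were therefore below Ctrl under proliferation, at a log2 fold change of -0.44 (SE 0.10), and all 3 were above Ctrl under differentiation, at 0.17 (SE 0.05). Scd2, the paralog of Scd1 and the form known to prevail in brain, measured 159.84, 333.53 and 335.31 FPKM in proliferating Ctrl and 300.17, 268.22 and 285.93 with NAD+. It measured 527.12, 2105.65 and 510.51 FPKM in differentiating Ctrl and 532.64, 551.56 and 512.72 with NAD+. Both comparisons overlapped, and each turned on 1 Ctrl sample. Under proliferation the log2 fold change was 0.12 (SE 0.28), and -0.23 without Ctrl replicate 1. Under differentiation it was -0.64 (SE 0.53), and 0.04 without Ctrl replicate 2. Scd1 (chr19:44394455-44407879, mm10) and Scd2 (chr19:44293674-44306864) lie on the same chromosome. Since the authors kept uniquely mapped reads, reads that match both would be missing from either value. Fads2, the desaturase that starts the conversion of essential fatty acids to long polyunsaturated ones, measured 359.51, 292.29 and 292.45 FPKM in proliferating Ctrl and 286.28, 236.51 and 244.09 with NAD+. It measured 672.65, 661.53 and 695.20 FPKM in differentiating Ctrl and 673.32, 663.04 and 656.31 with NAD+. NAD+ samples were below Ctrl under proliferation by a log2 fold change of -0.30 (SE 0.12), or -0.20 without Ctrl replicate 1. Under differentiation the groups overlapped, and the log2 fold change was -0.03 (95% interval -0.14 to 0.09), or 0.06 with median-ratio scaling.

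The uptake genes were lower with NAD+ in both conditions, to different degrees. Mfsd2a measured 11.95, 12.01 and 11.10 FPKM in proliferating Ctrl and 5.73, 4.76 and 4.64 with NAD+, a log2 fold change of -1.20 (SE 0.11). It measured 8.90, 12.34 and 10.89 FPKM in differentiating Ctrl and 9.10, 8.19 and 7.63 with NAD+, which overlapped, with a log2 fold change of -0.35 (95% interval -0.67 to -0.04). Mfsd2a is best known from the endothelium of the blood-brain barrier, whose 7 markers summed to at most 0.91 FPKM in any sample here, with 1 or 2 of them at 0 in all 3 samples of a group. Fabp5 measured 212.14, 215.39 and 205.96 FPKM in proliferating Ctrl and 122.34, 130.63 and 126.89 with NAD+. It measured 106.42, 98.67 and 106.72 FPKM in differentiating Ctrl and 53.20, 47.76 and 43.44 with NAD+. The 4 groups of Fabp5 did not overlap at any step, and its log2 fold changes with NAD+ were -0.74 (SE 0.07) and -1.11 (SE 0.08).

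**Figure D2:**
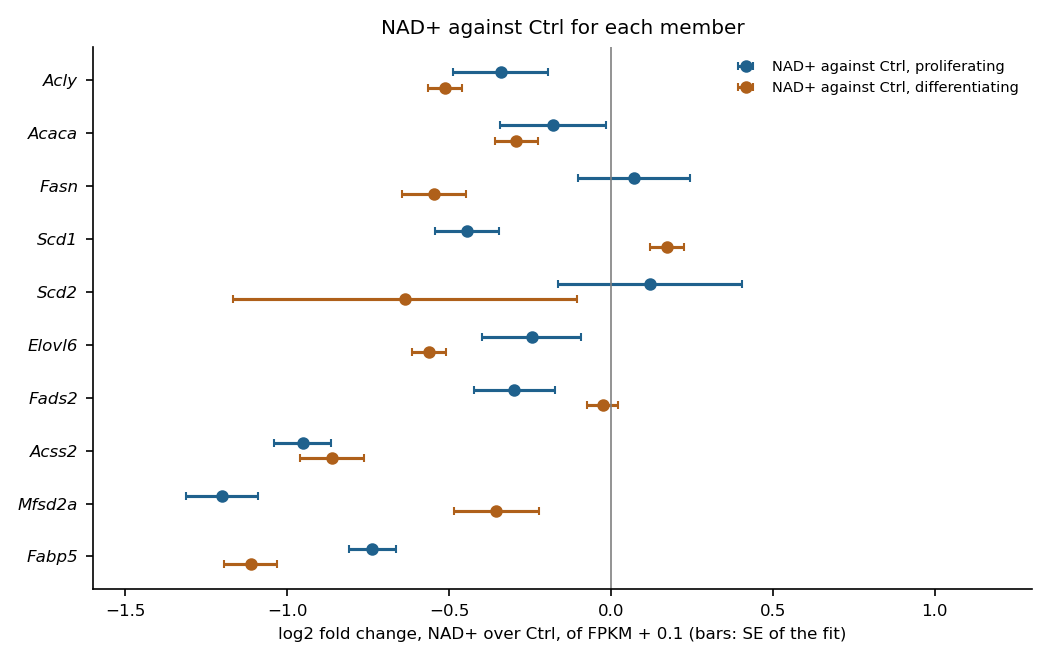
Log2 fold change of FPKM + 0.1, NAD+ over Ctrl, of each member in proliferating (blue) and differentiating (brown) cells, 3 samples a group, with bars for the SE. Of the 10 members 8 lie below 0 under proliferation, where 40.3% of all genes tested do. Under differentiation 9 do (Fads2 turns to 0.06 there with median-ratio scaling), where 61.8% of all genes tested do. The members were chosen with these values known, so nothing is read from these counts. The longest bar is that of Scd2 in differentiating cells, at -0.64 (SE 0.53).

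Read across all genes tested with limma (Benjamini-Hochberg, adjusted p under 0.05), the members' counts stood beside these shares. In proliferating cells 3 of 10 members (Acss2, Mfsd2a, Fabp5) were called lower, where 0.0968% of 18597 genes were, and 0 were called higher, where 0.0484% were. Without Ctrl replicate 1 there were 2 of these calls, and without any other single sample 0. The thresholds of the study (unadjusted p under 0.05 and a ratio of more than 2) were also set on the limma p-values. By them Mfsd2a alone was lower, where 1.41% of genes were. The authors' own p-values were not used, so these are not the calls of the study. NAD+ and Ctrl samples did not overlap for 5 members that were lower and 0 that were higher, where 8.59% and 15.5% of genes did not. In differentiating cells 5 members (Acly, Fasn, Elovl6, Acss2, Fabp5) were called lower, where 4.65% of 19611 genes were, and 0 were called higher, where 2.27% were. By the same thresholds on the limma p-values Fabp5 alone was lower, where 2.69% were. The groups did not overlap for 6 members that were lower and for Scd1, which was higher, where 21.1% and 9.68% did not. The members were chosen with these values known, so nothing is read from the counts.

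Over all genes tested, the median log2 fold change was 0.07 in proliferating and -0.08 in differentiating cells, and those of the members were -0.32 and -0.53. Of the genes called in differentiating cells, 445 were higher and 912 lower. With median-ratio scaling in place of the FPKM as deposited, these were 614 and 532, and with quantile normalization 580 and 581. The 5 members called lower under differentiation were called lower under both, although Fasn was called in 0 of the 6 fits that left out 1 sample, whereas the other 4 were called in all 6.

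The rest of fatty acid metabolism was followed with 6 lists of 120 other genes, which were also chosen with earlier results known. In proliferating cells 0 of the 109 that were tested passed with limma. An unadjusted p under 0.05 was reached by 25 of them, and by 2864 of all 18597 genes tested. The 25 included Fads1, the partner desaturase of Fads2, with a log2 fold change of -0.43 (adjusted p = 0.113), and Fabp7, the brain fatty acid binding protein, with -0.70 (adjusted p = 0.157). Fabp7 measured 2034, 2032 and 2254 FPKM in Ctrl and 1030, 1403 and 1516 with NAD+. In differentiating cells 2 of 111 rose and 11 fell, where 2.27% and 4.65% of all 19611 genes tested did. These shares also stand beside the counts of the single fatty acid lists below, and nothing is read from those counts. Without any single sample, 4 to 8 were called in all. The share that rose depends on the scaling, since 3 rose and 5 fell with median-ratio scaling, and 2 and 6 with quantile normalization. Over both conditions the median log2 fold change of the tested list genes, -0.09 and -0.08, lay closer to 0 than that of the members. The members were chosen with their differences known, so nothing is read from this.

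Among genes of acetyl-CoA and NADPH supply in differentiating cells, 3 of 14 fell. Idh1, an NADPH-forming isocitrate dehydrogenase of the cytosol, measured 43.98, 45.91 and 47.22 FPKM in Ctrl and 31.22, 35.46 and 30.99 with NAD+ (log2 fold change -0.49, SE 0.07, adjusted p = 0.0134). Acss1, the mitochondrial counterpart of Acss2, fell by 0.39 on the log2 scale (adjusted p = 0.0349) and pyruvate carboxylase, Pcx, by 0.27 (adjusted p = 0.0453). Acacb, the second acetyl-CoA carboxylase, was barely expressed, at 0.27 ± 0.02 FPKM (SD, n = 3) in Ctrl against 8.44 for Acaca.

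Among 15 other elongation and desaturation genes, 1 rose and 2 fell in differentiating cells. Fads1 measured 366.22, 355.01 and 370.84 FPKM in Ctrl and 299.35, 288.26 and 263.59 with NAD+, a log2 fold change of -0.36 (SE 0.06, adjusted p = 0.0222). Fads2, a neighbouring step of the same pathway, stood at -0.03 with overlapping groups. The elongase Elovl7 fell by 0.72 on the log2 scale (adjusted p = 0.0199), and Fads3, a relative of Fads2, rose by 0.36 (adjusted p = 0.0294). Elovl5, which lengthens polyunsaturated fatty acids, did not pass (-0.01, adjusted p = 0.893).

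Of 19 uptake and activation genes 3 fell in differentiating cells, and 0 rose. Cd36, a surface receptor for fatty acids, measured 6.31, 7.40 and 8.96 FPKM in Ctrl and 2.96, 2.63 and 3.52 with NAD+ (log2 fold change -1.28, SE 0.16, adjusted p = 0.0105). Acsl6, an acyl-CoA synthetase of brain, measured 17.58, 18.03 and 18.04 FPKM in Ctrl and 12.06, 11.48 and 11.31 with NAD+ (-0.62, SE 0.05, adjusted p = 0.00445). Acsbg1, another acyl-CoA synthetase, fell by 0.27 (adjusted p = 0.0382), and Fabp7 did not pass (-0.29, adjusted p = 0.129).

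Of 20 regulators 2 fell, and the gene of SREBP1 itself was not among them. Insig1, which holds SREBPs in the endoplasmic reticulum and is itself an SREBP target, measured 39.60, 35.69 and 38.37 FPKM in differentiating Ctrl and 21.95, 19.49 and 19.69 with NAD+ (log2 fold change -0.89, SE 0.07, adjusted p = 0.00370). Srebf2 fell by 0.30 (adjusted p = 0.0376). Srebf1 measured 51.69, 54.57 and 53.41 FPKM in Ctrl and 52.93, 43.38 and 38.97 with NAD+, which overlapped (-0.25, adjusted p = 0.228). Nr1h3, which encodes an LXR, was low at 0.91 ± 0.25 FPKM in Ctrl (SD, n = 3) and did not pass (0.16, adjusted p = 0.453). Nr1h2, which encodes the other LXR, was at 10.6 ± 0.66 FPKM in Ctrl (SD, n = 3) and did not pass either (0.02, adjusted p = 0.938), and it is named here after its values were seen. Of the 7 LXR targets other than the members, Abca1, the cholesterol exporter, rose by 0.87 (adjusted p = 0.00494) and 6 did not pass.

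Beta-oxidation, the opposite branch, had 0 of 24 genes called with limma in either condition, with 2 at an unadjusted p under 0.05 in proliferating and 4 in differentiating cells. Cpt1a, the entry step of long chains to the mitochondrion, had log2 fold changes of 0.16 (adjusted p = 0.628) and 0.10 (adjusted p = 0.414). Of 19 storage and lipolysis genes in differentiating cells, Lpin3, a phosphatidate phosphatase, rose by 1.03 (adjusted p = 0.00613) and Pnpla3, a lipid droplet protein, fell by 1.21 (adjusted p = 0.0480). Of 22 cholesterol synthesis genes 17 fell in differentiating cells (median -0.78), and in proliferating cells all 23 lay below 0 (median -0.55), with 0 called by limma and 17 at an unadjusted p under 0.05. Of them Fdps, which makes farnesyl diphosphate, fell by 1.12 in differentiating cells (adjusted p = 0.00987).

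**Figure D3:**
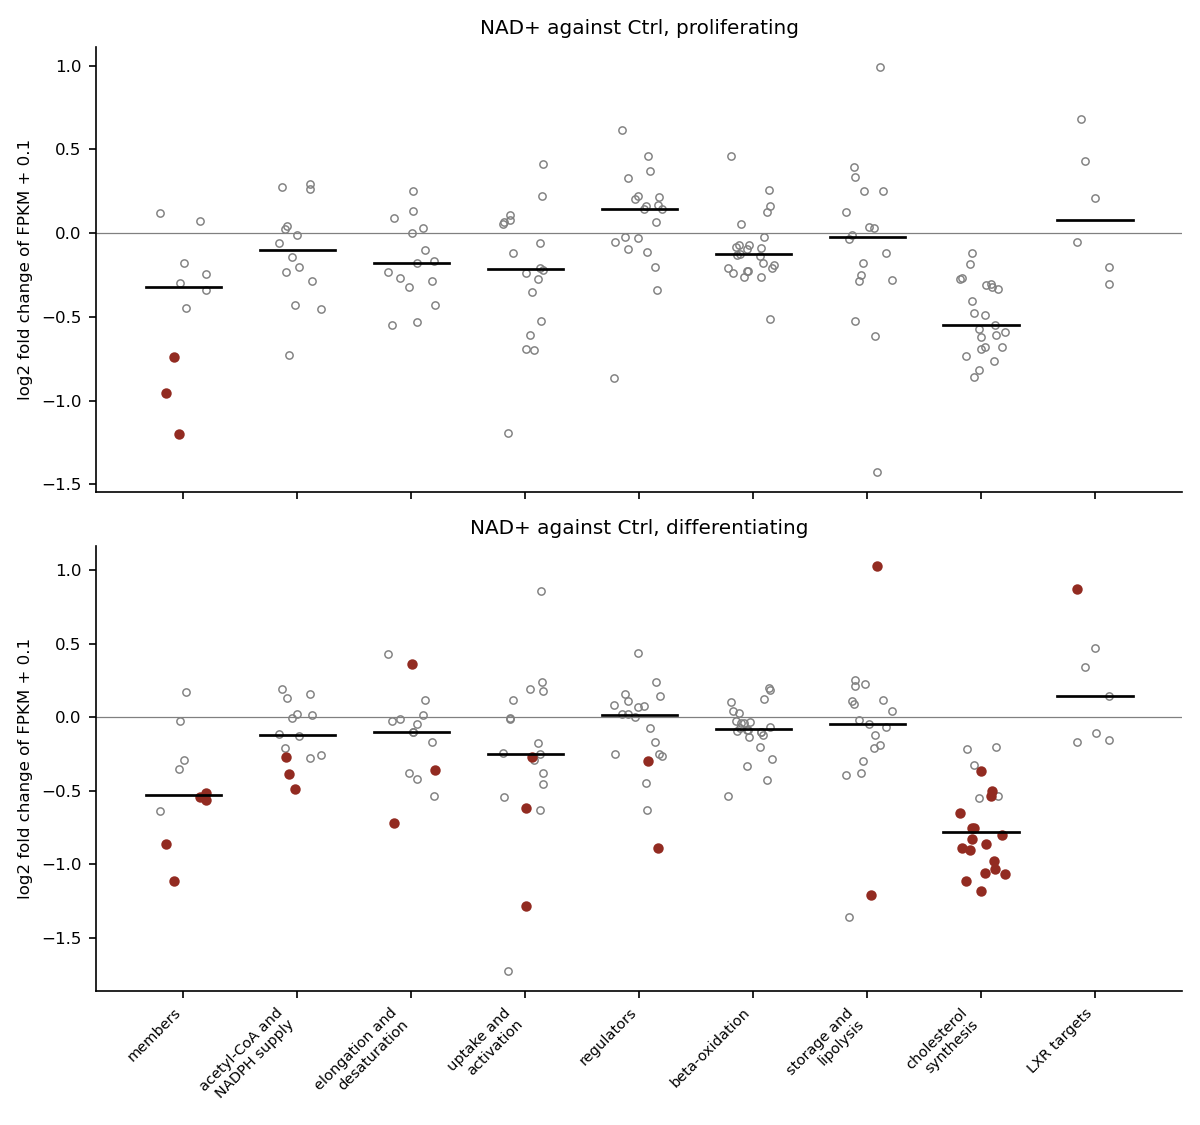
Log2 fold change of FPKM + 0.1, NAD+ over Ctrl, of every tested gene of the members and 8 other lists (1 point a gene, 3 samples a group), with lines at the medians and filled points for an adjusted p under 0.05. Among the lists other than the members no point is filled under proliferation, and under differentiation 17 of the 22 points of cholesterol synthesis are filled.

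Some markers of other cell types moved with NAD+ as well. In bulk RNA, fewer cells of a type and less RNA per cell cannot be told apart. In differentiating cells 0 of 8 neuron markers were called, and of 8 stem or progenitor markers 2 were higher and 3 lower. Myrf, a transcription factor of oligodendrocytes, fell in differentiating cells by 1.11 on the log2 scale (adjusted p = 0.0139). The 6 markers of oligodendrocyte precursors summed to 1313 to 1413 FPKM in proliferating Ctrl and 1044 to 1072 with NAD+, with 0 of 6 called. Olig1 had the highest mean of the 6 there, 842 FPKM. Under differentiation they summed to 703 to 733 FPKM in Ctrl and 498 to 525 with NAD+, where 1 of 6 (Gpr17) fell. The 8 astrocyte markers summed to 1325 to 1412 FPKM in differentiating Ctrl and to 1738 to 1863 with NAD+, with 3 higher (Gfap, Slc1a2, Slc1a3) and 1 lower (Aldh1l1). Gfap had the highest mean of the 8 there, 786 FPKM, at a log2 fold change of 0.72. The median of the 8 was -0.07, with 50% of them below 0. In proliferating cells all 8 lay below 0 (median -0.31) and 0 were called, with sums of 585 to 687 FPKM in Ctrl and 484 to 627 with NAD+. The part of these cells in the values of the members was not tested. Microglial markers summed to at most 0.33 FPKM in any sample.

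Whether NAD+ acted differently in the 2 conditions was asked by the difference of the 2 log2 fold changes, differentiating minus proliferating, in a fit of all 12 samples. Scd1 had a difference of 0.62 (SE 0.11), which is a description, since the members were chosen with these values known. It was the only member past the threshold, where 0.221% of 19498 genes were called higher and 0.246% lower, and nothing is read from this. It stayed past it in 1 of the 12 fits that left out 1 sample (the fit without proliferating Ctrl replicate 1), and under 3 of 7 other settings. The values were 0.85 (SE 0.18) for Mfsd2a, whose NAD+ effect was the larger one under proliferation, and -0.62 (SE 0.21) for Fasn. For Fabp5 the difference was -0.38 (SE 0.11), and for Acss2 it was 0.09 (95% interval -0.20 to 0.38). Over all genes the median difference was -0.16, or -0.02 after median-ratio scaling, and the 43 higher and 48 lower calls became 69 and 24, or 63 and 28 after quantile normalization. Of the 110 other fatty acid genes tested, Acsl3 passed. No gene of these lists passed in the 6 fits that left out any of the differentiating Ctrl samples, differentiating NAD+ replicate 3, or proliferating NAD+ replicate 2 or 3. This acyl-CoA synthetase measured 71.71, 62.62 and 60.71 FPKM in proliferating Ctrl and 46.60, 40.32 and 40.70 with NAD+, but 296.70, 326.74 and 310.40 in differentiating Ctrl and 360.31, 358.59 and 349.55 with NAD+. The difference of its log2 fold changes was 0.81 (SE 0.11, adjusted p = 0.0179), and both it and Scd1 were lower with NAD+ in proliferating samples and higher in differentiating ones without overlap.

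Without NAD+, members differed between the 2 conditions in both directions. The condition and the table that holds it cannot be told apart, since each condition was deposited in a table of its own. The desaturases were higher in differentiating than in proliferating Ctrl samples, Fads2 at 2.15 times, Scd1 at 1.67 times and Scd2 at 3.79 times the mean FPKM. The log2 fold changes were 1.11 (SE 0.10), 0.75 (SE 0.08) and 1.66 (SE 0.47), and that of Scd2 was 0.99 without differentiating Ctrl replicate 2. That fit still held the low proliferating Ctrl replicate 1. Without both samples the Ctrl means of Scd2 were 518.8 FPKM under differentiation and 334.4 under proliferation. The supply and synthesis genes were lower, with -1.51 (SE 0.12) for Acly, -1.10 (SE 0.09) for Acss2, -0.57 (SE 0.15) for Fasn and -1.30 (SE 0.12) for Elovl6. Fabp5 was lower as well, at -1.02 (SE 0.07). Acaca and Mfsd2a overlapped, with 0.04 (95% interval -0.25 to 0.33) and -0.14 (95% interval -0.41 to 0.14, and 0.12 with quantile normalization). By limma 3 of 10 members were called higher, where 25% of 19498 genes were, and 5 lower, where 31.6% were. The members were chosen with these values known, so nothing is read from these counts. Under quantile normalization the value of Fasn was -0.13 and was not called.

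Ordered by mean FPKM over the 4 groups, Acly and Elovl6 stood highest in the proliferating groups, which overlapped each other, then in differentiating Ctrl and last with NAD+. Fabp5 had the same order with no overlap. Fasn began with the proliferating groups in overlap, then differentiating Ctrl, then differentiating NAD+. Fads2 ran the other way, with the differentiating groups in overlap at the top, then proliferating Ctrl and proliferating NAD+. Scd1 descended from differentiating NAD+ over differentiating Ctrl and proliferating Ctrl to proliferating NAD+ with no overlap. Acaca overlapped at each step. The members run in opposite directions over the 12 samples (Pearson r of Acly with Fads2 -0.92), so the mean of their standardized levels cancels in part and is the pattern of no single member. The 5 genes outside the members whose log2 levels over the 12 samples were most like that mean were Sall2 (Pearson r 0.98), Fermt2 (0.96), Dok6 (0.95), Sdk1 (0.95) and Adgrb3 (0.94), of 12918 genes searched. The 12 samples share 4 groups and 2 tables, so these values describe likeness to that mean over groups and nothing further.

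Of the 110 other fatty acid genes, 28 rose and 43 fell between the conditions in Ctrl, or 37 and 31 after quantile normalization. Over all 19498 genes tested, 25% were called higher and 31.6% lower. The lists were chosen with earlier results known, so nothing is read from their counts. Supply genes fell most often, 11 of 14, among them Idh1 (-1.24, adjusted p = 2.23e-07) and citrate synthase, Cs (-1.19, adjusted p = 3.17e-07). Of 15 elongation and desaturation genes 8 rose and 4 fell. Fads1 rose by 1.28 (adjusted p = 1.24e-07), Elovl5 by 0.51 (adjusted p = 3.34e-05) and Fads3 by 1.51 (adjusted p = 2.36e-06). Hsd17b12, a reductase of the elongation cycle, fell by 1.48 (adjusted p = 4.91e-08), and Tecr, another, did not pass (-0.02, adjusted p = 0.938). Of 18 uptake and activation genes 6 rose and 6 fell. Acsl3 rose by 2.26 (adjusted p = 6.24e-09), whereas Fabp7 fell by 2.23 (adjusted p = 3.02e-07). Among regulators Srebf1 rose by 1.37 (adjusted p = 2.16e-06), Nr1h3 rose by 0.71 (adjusted p = 0.0186) and Insig1 fell by 1.55 (adjusted p = 6.70e-07), while Srebf2 did not pass (-0.10, adjusted p = 0.293). Of 7 LXR targets 5 rose and 0 fell, led by Apoe (3.67, adjusted p = 2.12e-05). All 23 cholesterol synthesis genes fell, with a median of -1.42. Over all genes the median was -0.06, and 0.05 after median-ratio scaling.

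**Figure D4:**
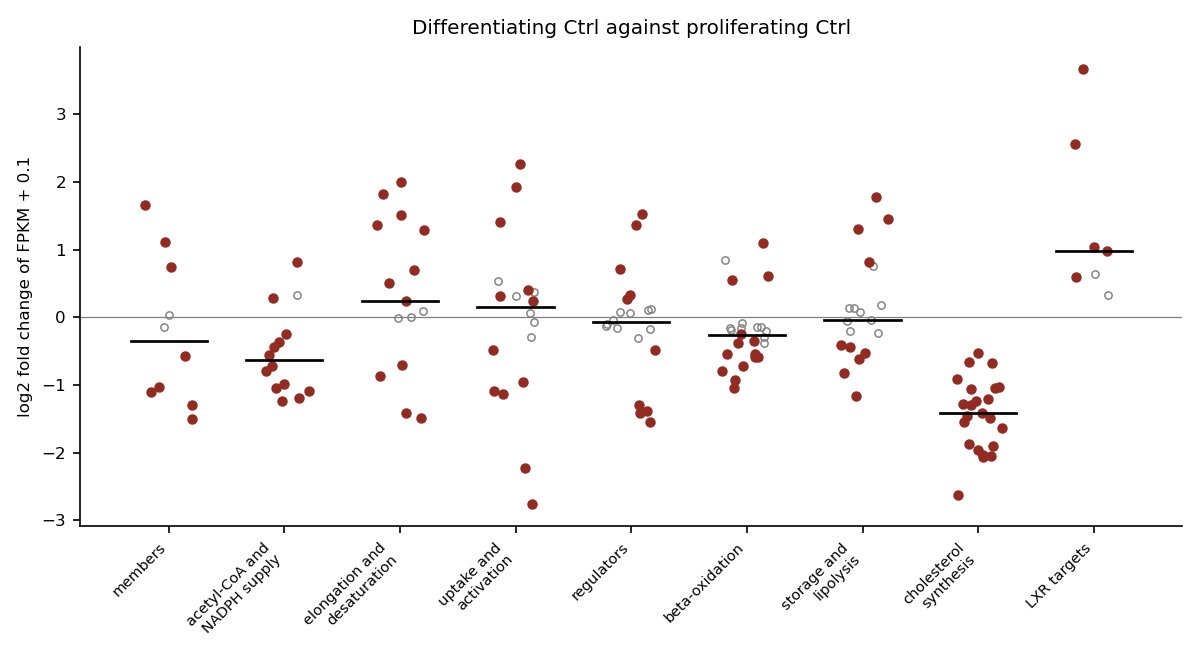
Log2 fold change of FPKM + 0.1, differentiating Ctrl over proliferating Ctrl, of every tested gene of the members and 8 other lists (1 point a gene, 3 samples a group), with lines at the medians and filled points for an adjusted p under 0.05. The cholesterol synthesis genes all lie below 0 (median -1.42) and the LXR targets above it (median 0.99), with the members on both sides.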

How the data were processed

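RNA-seq was made from total RNA of 12 samples. The authors mapped reads to mm10 with Hisat2 2.0.5, kept uniquely mapped reads, counted them with FeatureCounts 2.0.1 and deposited FPKM values for 55401 genes in a table per condition. The program behind the FPKM is not given in the sources used here. The deposited tables also hold the authors' fold change (ratio), its log2, p-value, q-value and marks of significance, which were not used. All 12 FPKM columns were used and 0 were left out.

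All genes whose FPKM averaged 0.1 or more were fitted on log2(FPKM + 0.1) with limma 3.58.1 (R 4.3.3, variance trend, two-sided), with Benjamini-Hochberg adjustment over the whole table. NAD+ effects were fitted on 6 samples each, and the difference and the differentiation effect on 12. Simulated tables with 200 altered genes were used to test the code. The labels do not say whether replicates are separate cultures. The authors describe them as biological repeats, without saying what was repeated. The p-values set a difference of group means against the spread of these samples within groups, adjusted by limma with a trend over all genes. How much of that spread is technical is not known. Members, lists and tests were chosen with earlier results of these data known. All members were named, with up to 4 genes per list that had the largest called change at a mean FPKM of at least 1 in the fit described, 5 genes by likeness, and 9 regulators and pathway genes in any case. Of the genes that this rule picks, some are given only within the counts. Gene models came from GENCODE M21. Sums of markers and of FPKM do not measure depth. The summed oligodendrocyte markers are not reported here. Alternatives were a pseudocount of 1 or 0.01, no filter or a minimum of 1, median-ratio or quantile scaling, a replicate block and leaving out each sample. Summaries and plots used Python 3.11.15, pandas 2.3.3, numpy 2.4.6 and matplotlib 3.10.9.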

Additional observations from a re-analysis of the deposited data

Results flagged for a closer look

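The test of the difference itself in limma was passed by Acsl3 and Scd1, whose log2 fold change with NAD+ in differentiating cells minus that in proliferating cells was 0.81 and 0.62 (SE 0.11 for each). For both genes all 3 NAD+ samples were below Ctrl under proliferation and above Ctrl under differentiation. Scd1 belongs to genes chosen with these values known, so its difference is a description and not a finding, and it stayed past the threshold in 1 of the 12 fits that left out 1 sample and under 3 of 7 other settings. Acsl3 was not past the threshold in at least 6 of those 12 fits, those without any of the differentiating Ctrl samples, differentiating NAD+ replicate 3, or proliferating NAD+ replicate 2 or 3.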

How the results depend on the processing

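Direction was kept in every called value of the members, and over the alternatives 595 single values of the members stayed on their side of the threshold, 44 lost and 1 gained a call. The cause of a lost call was not tested. In proliferating cells 3 members were called, 0 under the replicate block and 0 to 2 without single samples (0 without Ctrl replicate 2 or 3 or any NAD+ replicate). In differentiating cells 5 were called, and 4 without each single sample, where Fasn was lost. Of the 120 other fatty acid genes 13 were called there, 8 with median-ratio scaling, 8 with quantile normalization, 7 with the block and 4 to 8 without single samples. For the difference between the conditions, 1 member was called, and 0 with a pseudocount of 0.01, without a filter, with quantile normalization or with the block, and 0 to 1 without single samples. Of the other fatty acid genes 1 was called there, 2 at a minimum mean FPKM of 1, and 0 to 1 without single samples. Counts for differentiation against proliferation stayed within 1.5 times throughout, from 8 to 8 members and 66 to 73 other genes without single samples. Over all genes the block left 0 limma calls in proliferating cells (9 higher and 18 lower without it, and 3094 at an unadjusted p under 0.05 with it) and 275 higher and 483 lower in differentiating cells. Whether NAD+ and Ctrl samples with the same number are paired is not given. Their deviations from the group means correlated at 0.17, 0.01 and 0.08 in proliferating and 0.05, 0.08 and 0.02 in differentiating cells. Each differentiating Ctrl sample and proliferating Ctrl replicate 1 correlated best with the NAD+ sample of its own number. Proliferating Ctrl replicates 2 and 3 did not. These low correlations cannot exclude a pairing, so counts with and without the block are given. With 3 samples a group and unknown depth, counting error cannot be separated from other spread, and no lower limit of detection can be given.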
